A study of Mus musculus with 33 samples.

Results

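The 10 genes listed for the calcium cycle of the heart muscle cell were taken by symbol from a table of read counts, and 9 of the 10 had a row among its 14862 gene rows: Cacna1c, Ryr2, Jph2, Casq2, Trdn, Atp2a2, Pln, Slc8a1 and Camk2d. The tenth, Sln (sarcolipin), is not analysed here. Each of the 33 samples is 1 ventricular cell of a mouse that carries mAG-hGem, a geminin fused to the green protein Azami Green, which is the part of the FUCCI cell cycle reporter that is bright in cells past the start of DNA synthesis. All groups carried this transgene, and no promoter driving it, strain or animal is named. Cells were sorted by the green signal at 2 ages, which gave 10 reporter-positive and 11 reporter-negative cells at embryonic day 14.5 (E14.5) and 6 positive and 6 negative cells at postnatal day 5 (P5). The protocol says that cells were accepted as cardiomyocytes when PCR found Tnnt2 and not Pdgfrb, and that the mRNA of each cell was amplified as antisense RNA before sequencing.

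In each heartbeat the L-type calcium channel, whose pore is Cacna1c, lets a little calcium into the cell, and this opens the ryanodine receptor Ryr2, the release channel of the sarcoplasmic reticulum. The released calcium drives contraction, and relaxation follows when the pump Atp2a2 (SERCA2) returns it to the store and the sodium-calcium exchanger Slc8a1 (NCX1) carries the rest out of the cell. Immature heart muscle has a sparse sarcoplasmic reticulum and is known to lean more on calcium that crosses the outer membrane, so the balance of pump and exchanger is a usual measure of maturation.

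Among the members, Slc8a1 stood lower and Casq2 higher in most P5 positive cardiomyocytes than in E14.5 positive cells, and the sequence before the start of each of these 2 genes is shown because they differed in opposite directions. In GENCODE M21 on build GRCm38 both are protein-coding genes, Casq2 at chr3:102086415-102146514 on the plus strand and Slc8a1 at chr17:81373105-81738377 on the minus strand. Of the members, 7 have an entry in the RefSeq promoter table of mouse build GRCm38.p6. The 250 bases before the start are at chr3:102086165-102086414 on the plus strand for Casq2 and at chr17:81738388-81738637 on the minus strand for Slc8a1, written 5′ to 3′ with motif matches in capitals.
Casq2: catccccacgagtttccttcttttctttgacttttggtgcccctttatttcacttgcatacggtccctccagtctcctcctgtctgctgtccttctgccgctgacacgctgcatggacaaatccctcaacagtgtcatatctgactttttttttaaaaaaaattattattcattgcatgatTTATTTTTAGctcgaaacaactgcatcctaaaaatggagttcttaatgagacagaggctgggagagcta
Slc8a1: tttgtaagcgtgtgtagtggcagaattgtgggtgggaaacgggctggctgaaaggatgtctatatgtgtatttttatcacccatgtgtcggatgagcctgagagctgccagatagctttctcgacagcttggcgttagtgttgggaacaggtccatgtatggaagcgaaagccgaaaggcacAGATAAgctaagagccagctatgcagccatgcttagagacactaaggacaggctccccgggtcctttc
The capitals in the Casq2 sequence mark a match to the motif of the muscle factor MEF2, which begins 69 bases before the start, and 2.92% of 32851 RefSeq promoters of the same length hold such a match. In the Slc8a1 sequence they mark AGATAA, which is bound by factors of the GATA family, and the match begins 68 bases before the start; this motif occurs in 9.99% of those promoters. The other motifs searched in both were the M-CAT motif CATTCC, the TATA box with letters TATAAA, and the CArG motif of serum response factor, which had no match in these 2 windows, and the E-box CANNTG, which 66.2% of promoters hold and which had 2 matches in the Casq2 window and 1 in that of Slc8a1. Each motif was searched on both strands. The data hold no start sites, binding or methylation, so a match is a description of the letters only.

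Total counts per cell ran from 2.55 to 38.5 M (1 M is 1000000 counts), and values are given in CPM, counts per 1000000 counts of the same cell or of the summed cells of a group. Every sample is a single cell of an unnamed animal, so a group counts as 1 sample, no test between groups was possible and none of the differences has a replicate check. Intervals in brackets are exact 95% intervals for counts pooled over the cells of a group, so they say nothing of the difference from cell to cell. They cover the counting error of reads only, and amplified reads are not independent molecules. A difference is called when it is at least 2-fold with 0.5 count added to each group, among genes whose counts in the 2 groups add up to 10 or more. The label "single cardiomyocytes" was checked with 11 cardiomyocyte markers, which summed to 15780 to 45675 CPM in E14.5 positive cells, 17833 to 47881 CPM in E14.5 negative cells and 23673 to 117457 CPM in 5 of 6 P5 positive cells. The remaining P5 positive cell, L2P12, had 113 CPM of cardiomyocyte markers, with 4 of 11 at 10 CPM or more, and 4597 CPM of 6 endothelial markers. In the 6 P5 negative cells cardiomyocyte markers summed to 0.622 to 371 CPM, and 0 to 4 of the 11 reached 10 CPM. Only Myh7 and Nkx2-5 had no read in any of them. Tnni3, Myl2 and Myl3 had a read in all 6 cells, and Tnnt2 had one in 5, with up to 128 CPM. Tnni1 reached 294 CPM. Of these 6 cells, 5 had 2944 to 13065 CPM of endothelial markers, 2 of those also had 61443 and 225556 CPM of globin and other red blood cell markers, and in the sixth, L2N12, fibroblast and mural markers summed to 19402 CPM. The 26 cells in which cardiomyocyte markers exceeded those of every other type (10, 11, 5 and 0 cells of the 4 groups) are called cardiomyocyte-led here.

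**Figure D1:**
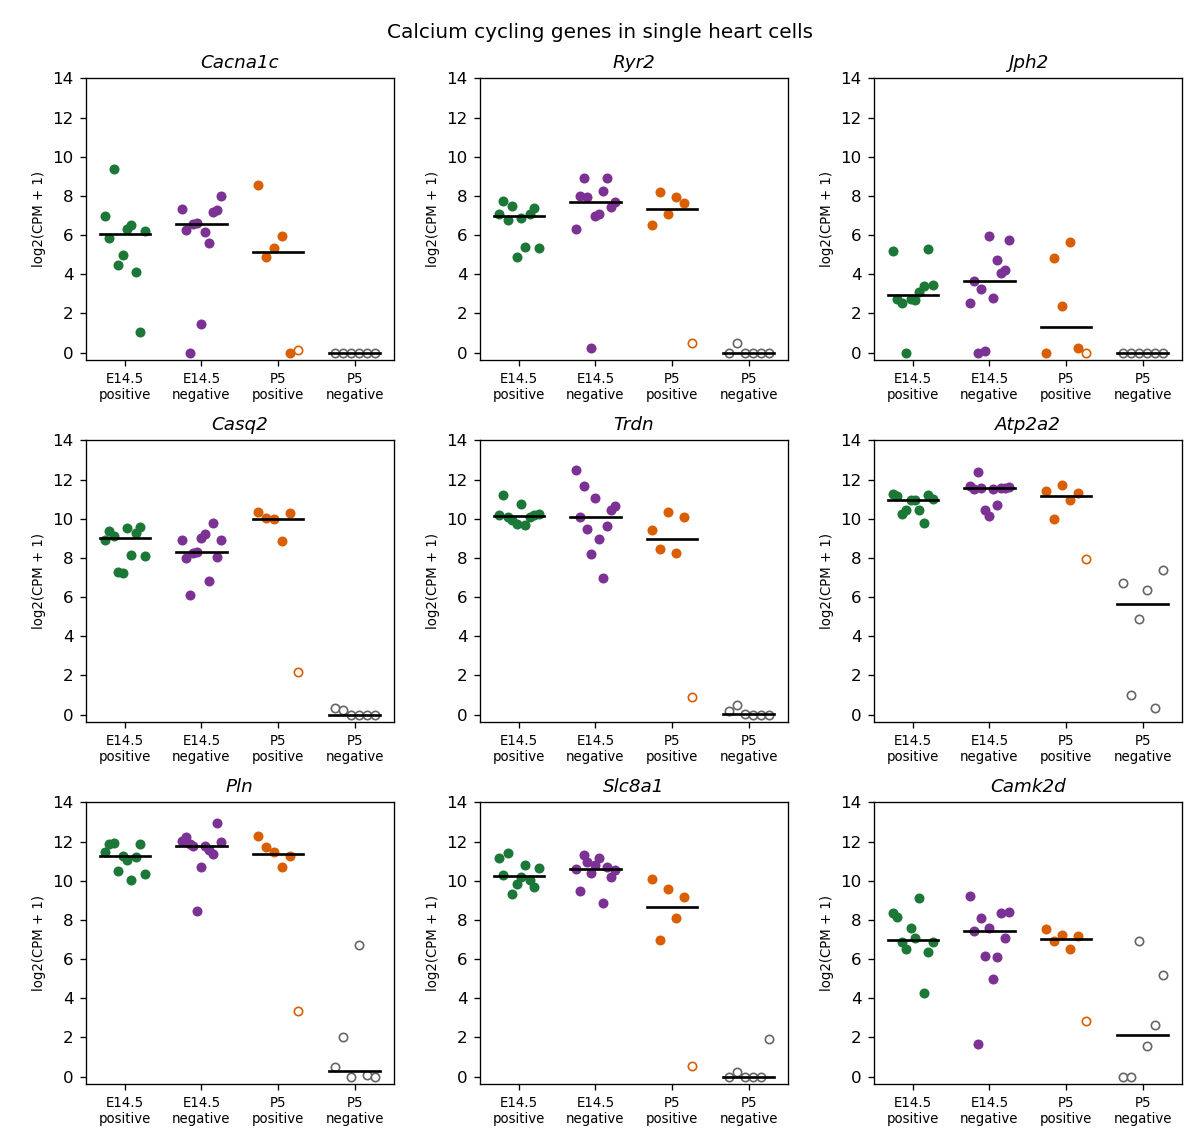
Each point is 1 cell and shows log2(CPM + 1) of the named gene, with the 4 groups on the x axis. Filled points are cardiomyocyte-led cells, open points are the others, and lines are group medians. The 1 open P5 positive point, L2P12, is the lowest or among the lowest of its group in every panel, and P5 negative cells lie near 0 for most members.

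The comparison of P5 positive with E14.5 positive cells sets postnatal against embryonic cells with the reporter signal. Slc8a1 showed the largest difference of the members, and only Slc8a1, Trdn and Cacna1c passed 2-fold, all with lower values at P5. No member was at least 2-fold higher, against 30.3% of all 12262 genes tested, and 3 of 9 were at least 2-fold lower, against 40.9%. These shares are no larger than the background, and the median log2 ratio of the members, -0.36, lay beside the -0.39 of all genes. With the 5 cardiomyocyte-led P5 cells alone, 0 of 9 members were called higher (background 24.5%) and 1 of 9, Slc8a1, lower (background 49.0%). In those cells the median log2 ratio of the members was 0.04 and that of all genes -0.93.

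Slc8a1 ranged from 649 to 2714 CPM in E14.5 positive cells, with a median of 1210 CPM. The 5 cardiomyocyte-led P5 positive cells had 1093 (L1P5), 759.6 (L2P7), 585 (L2P10), 272 (L2P8) and 125 CPM (L2P3), and L2P12 had 0.444 CPM. Among the 5, L2P10, L2P8 and L2P3 were below every E14.5 positive cell, and L1P5 and L2P7 were within the embryonic range. In summed counts Slc8a1 was 313 CPM at P5 and 1314 CPM at E14.5, a log2 ratio of -2.07 (-2.09 to -2.05), and -1.67 (-1.68 to -1.65) without L2P12. Leaving out each cell in turn gave -2.44 to -1.67, and Slc8a1 is the member that kept its 2-fold call under every alternative run.

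Atp2a2, the pump that competes with the exchanger for cytosolic calcium, was at nearly the same summed level at both ages. It ranged from 884 to 2421 CPM in E14.5 positive cells (median 1997 CPM) and from 1024 to 3431 CPM in cardiomyocyte-led P5 positive cells (median 2526 CPM). Of those 5 cells, 3 were above every E14.5 positive cell, and none was below. The log2 ratio was 0.01 (0 to 0.02) with all cells and 0.36 (0.35 to 0.37) without L2P12, which had 242 CPM. Leaving out 1 cell in turn gave values on both sides of 0, from -0.25 to 0.36. Pln, phospholamban, which holds the pump back until it is phosphorylated, ranged from 1063 to 3852 CPM (median 2442 CPM) at E14.5 and from 1650 to 5058 CPM (median 2845 CPM) in the 5 P5 cells. Its log2 ratio was -0.36 (-0.37 to -0.35) with all cells and 0.04 (0.03 to 0.05) without L2P12, so the direction turned with that cell.

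A ratio of 2 genes within a cell does not depend on the library total. There were 0.777 counts of Slc8a1 per count of Atp2a2 in the summed E14.5 positive cells, 0.552 in E14.5 negative cells and 0.191 in cardiomyocyte-led P5 positive cells. Single cells spanned 0.341 to 2.24 in E14.5 positive, 0.237 to 1.59 in E14.5 negative and 0.123 to 0.393 in the 5 P5 positive cells. Of these 5 cells, 4 had a lower ratio than any of the 21 E14.5 cells, and L1P5, at 0.393, lay within both embryonic ranges. Per count of Atp2a2, Pln differed less, with 1.45, 1.43 and 1.16 counts in the same order, and its single-cell ranges overlapped, from 0.626 to 3.18, 0.255 to 2.59 and 0.822 to 3.36.

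**Figure D2:**
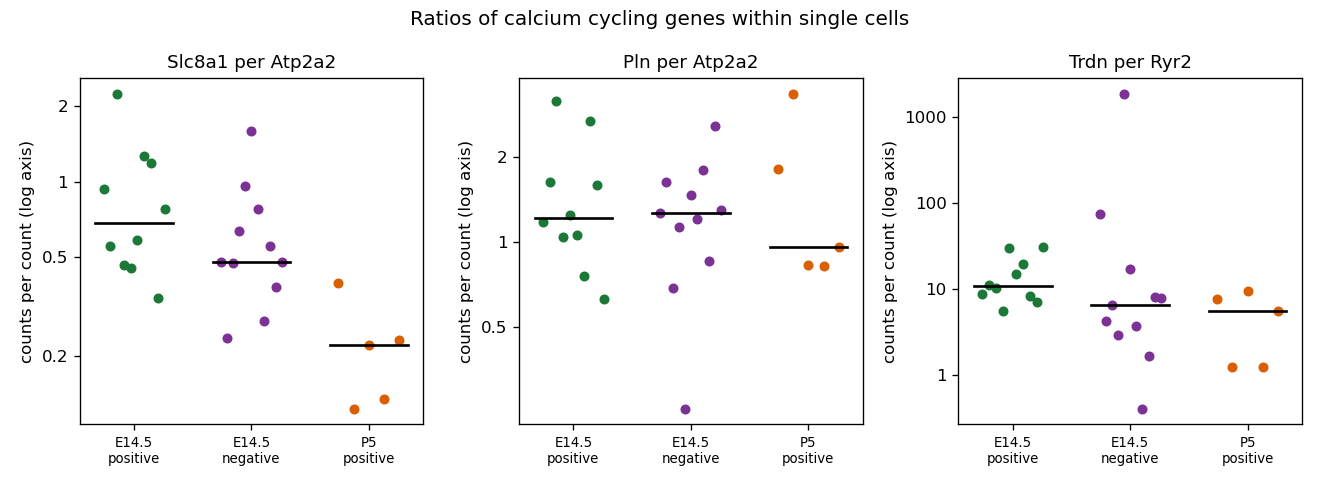
Counts of one gene per count of another within each cardiomyocyte-led cell, on log axes, for E14.5 positive, E14.5 negative and P5 positive cells, with lines at the medians. Slc8a1 per Atp2a2 reaches at most 0.393 in P5 positive cells, while Pln per Atp2a2 overlaps between all 3 groups.

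On the release side of the cycle, Ryr2 ranged from 28.7 to 213 CPM (median 124 CPM) in E14.5 positive cells and from 89.98 to 289 CPM (median 195 CPM) in cardiomyocyte-led P5 positive cells. Its log2 ratio was 0.57 (0.54 to 0.60) with all cells and 0.97 (0.94 to 1.00) without L2P12, just inside 2-fold. Of the 5 P5 cells, 2 were above every E14.5 positive cell. All 5 lay within the Ryr2 range of E14.5 negative cells, 0.160 to 489 CPM (median 202 CPM). Casq2, calsequestrin, which binds calcium inside the store, ranged from 149 to 758 CPM (median 519 CPM) in E14.5 positive cells. The 5 P5 cells had 1282, 1254, 1046, 1005 and 470.2 CPM of Casq2, and 4 of them were above every E14.5 positive cell. These 4 were also above the E14.5 negative cells, at 67.7 to 878 CPM. L2P12 had 3.51 CPM, and the summed log2 ratio of Casq2 was 0.40 (0.39 to 0.42) with it and 0.80 (0.79 to 0.82) without it.

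Trdn, triadin, anchors calsequestrin to the release channel, and it differed in the opposite direction to Casq2. It ranged from 807 to 2363 CPM (median 1136 CPM) in E14.5 positive cells. The cardiomyocyte-led P5 positive cells had 1281, 1091, 688, 355 and 302 CPM of Trdn, and 3 of the 5 were below every E14.5 positive cell. All 5 lay within the E14.5 negative range of Trdn, 124 to 5676 CPM. Its log2 ratio was -1.27 (-1.28 to -1.25) with all cells and -0.86 (-0.88 to -0.85) without L2P12, which ended the 2-fold call, as did DESeq2 size factors (-0.88). Summed counts of Trdn per count of Ryr2 were 10.5 in E14.5 positive, 5.15 in E14.5 negative and 2.94 in cardiomyocyte-led P5 positive cells. In single E14.5 positive cells, 5.47 to 30.7 Trdn counts per Ryr2 count overlapped the 1.23 to 9.42 of the P5 cells. The summed counts of Casq2 per count of Ryr2 were 4.42, 1.85 and 3.93 in the same order. By the median cell they were 4.94, 1.82 and 6.44, so P5 positive against E14.5 positive turned with the weighting. Single cells overlapped, with 0.876 to 6.93 in E14.5 positive and 1.93 to 14.2 in the P5 cells.

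Values of the channel and its scaffold rested on few cells. Cacna1c had a median of 65.0 CPM in E14.5 positive cells, from 1.08 to 655 CPM, and 48.7% of the group's counts were in the single cell G5. In cardiomyocyte-led P5 positive cells it had a median of 39.2 CPM, from 0 in L2P10 to 371 CPM in L1P5, so the ranges overlapped almost fully. The log2 ratio of Cacna1c was -1.10 (-1.16 to -1.05) with all cells, -0.70 (-0.75 to -0.65) without L2P12, -0.89 without L2P10 and -0.23 without G5, and each of these ended the call, as did TMM sizes (-0.95). Jph2, junctophilin, which ties the reticulum to the outer membrane, was the member with the fewest counts, with 2143 in E14.5 positive and 1764 in P5 positive cells. It ranged from 0 to 38.1 CPM (median 6.59 CPM) at E14.5 and from 0 to 48.4 CPM (median 4.23 CPM) in the 5 P5 cells, and 73.4% of the P5 counts were in L2P8. Its log2 ratio of 0.50 (0.41 to 0.59) turned to -0.92 without L2P8, so no direction can be given for Jph2. Camk2d, the kinase CaMKII delta that phosphorylates Ryr2 and Pln, had medians of 126 CPM (18.2 to 546 CPM) and 144 CPM (89.7 to 183 CPM), and all 5 P5 cells lay inside the embryonic range. Its log2 ratio was -0.79 (-0.83 to -0.76), and -0.41 (-0.45 to -0.38) without L2P12, while without G27 it passed 2-fold at -1.15. No member's cardiomyocyte-led P5 range lay apart from its E14.5 positive range, against 2.07% of 11956 genes in either direction.

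**Figure D3:**
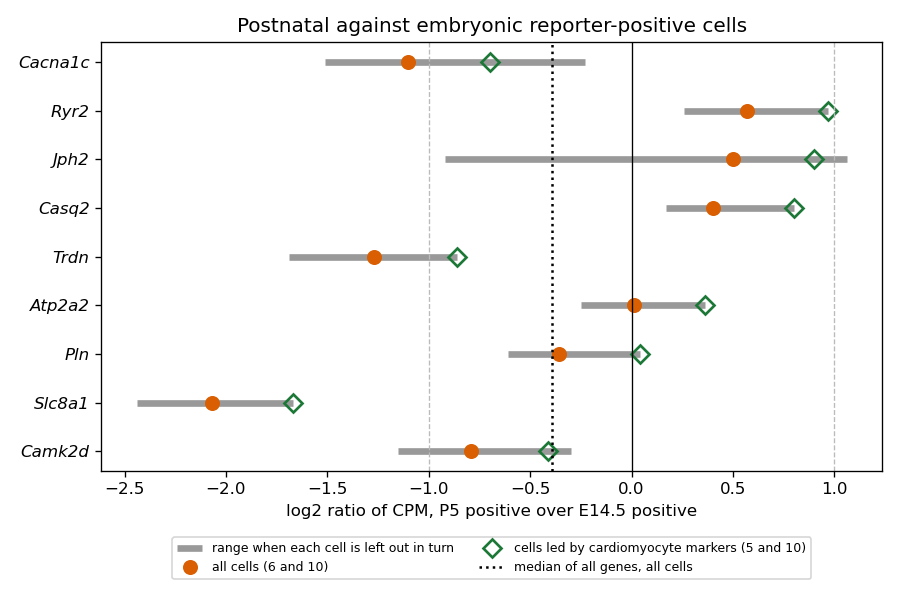
The log2 ratio of summed CPM, P5 positive over E14.5 positive, is on the x axis for each member, with all cells (circles), with cardiomyocyte-led cells (diamonds) and over the range when each cell is left out in turn (bars). Dashed lines mark 2-fold and the dotted line the median of all genes, -0.39. Slc8a1 lies beyond 2-fold over its whole bar, and the bar of Jph2 spans both directions.

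The comparison of E14.5 positive with E14.5 negative cells is the one in which every cell was cardiomyocyte-led, and it sets cells with the reporter signal against cells without it at 1 age. No member passed 2-fold in either direction, where 22.4% of 12633 genes were called higher and 29% lower. No member's ranges lay apart, against 0.198% of genes. The median log2 ratio over the 9 members was -0.37, and that of all genes -0.16. The pump, its inhibitor and the release channel had lower summed levels in positive cells: -0.67 for Atp2a2 (-0.68 to -0.67), -0.65 for Pln (-0.66 to -0.65) and -0.98 for Ryr2.

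Atp2a2 ranged from 1129 to 5394 CPM (median 3036 CPM) in E14.5 negative cells, and 1 of 10 positive cells, G27 with 884 CPM, was below all of them. Ryr2 ranged from 0.160 to 489 CPM (median 202 CPM) in negative cells. The cell N10 with 0.160 CPM of Ryr2 also had the lowest Pln of its group, 354 CPM, and 5017 CPM of fibroblast and mural markers beside 23506 CPM of cardiomyocyte markers; the part of these other markers in its values was not tested. Without N10 the log2 ratio of Ryr2 was -1.12, which passes 2-fold, and for 9 of the 21 cells leaving out that cell alone put Ryr2 past 2-fold. Pln ranged from 354 to 7898 CPM (median 3550 CPM) in negative cells, and without the highest of them, N28, its log2 ratio was -0.29.

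The other members differed less between positive and negative E14.5 cells. Slc8a1 had a log2 ratio of -0.18 (-0.19 to -0.17), with 462 to 2542 CPM in negative cells (median 1557 CPM). Casq2, at 0.28 (0.26 to 0.29), ranged from 67.7 to 878 CPM in negative cells (median 319 CPM), and Camk2d, at -0.07 (-0.09 to -0.05), from 2.15 to 592 CPM (median 169.5 CPM). Trdn, at 0.05 (0.04 to 0.06), spread from 124 to 5676 CPM in negative cells (median 1086 CPM), and its sign turned with equal weights for cells (-0.35) and with DESeq2 size factors (-0.07). Cacna1c was at -0.37 (-0.41 to -0.34), with 0 to 253 CPM in negative cells (median 93.5 CPM), at -1.25 without G5 and at 0.20 with equal weights for cells, so no direction can be given. Jph2 was at -0.46 (-0.54 to -0.38), with 0 to 61.4 CPM in negative cells (median 11.4 CPM), and at -1.02 without G28.

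The titles of the E14.5 cells carry numbers from 1 to 10 or from 21 to 30, and what these mark is not stated, so each range was compared on its own. Among numbers 1 to 10 the log2 ratios of positive over negative cells were -0.60 for Atp2a2, -0.04 for Pln and -0.60 for Ryr2. Among numbers 21 to 30 they were -0.74, -0.90 and -1.15 in the same order. Cacna1c had 0.91 in the first and -1.64 in the second, so its direction differed between the ranges, as did that of Jph2 with 1.00 and -0.59. Against E14.5 positive cells numbered 21 to 30 alone, Cacna1c of P5 positive cells had a log2 ratio of 0.04, and against those numbered 1 to 10 it had -2.05.

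At P5, 0 of the 6 reporter-negative and 5 of the 6 positive cells were cardiomyocyte-led. The comparison of P5 positive with P5 negative cells is therefore mostly between cell types. Reporter state and cell type cannot be told apart in it. Of 9 members, 8 were at least 2-fold higher in positive cells (background 34.2% of 11567 genes) and 0 were at least 2-fold lower (background 39.4%). For 4 members, Ryr2, Atp2a2, Casq2 and Trdn, every P5 positive cell was above every negative cell (background 1.43%), with L2P12 the lowest positive cell each time. For Ryr2 the gap was small, with 0.400 CPM (9 counts) in L2P12 and 0.388 CPM (2 counts) in L2N4. Cacna1c and Jph2 had 0 counts in the P5 negative cells. With 3 counts in the whole P5 negative group, the limit that a count of 0 allows, Cacna1c was at least 1055-fold and Jph2 at least 529-fold higher in positive cells. Ryr2 had 2 counts, Casq2 3 and Trdn 4 in all P5 negative cells, and the log2 ratios were 12.75 (10.90 to 15.80), 14.14 (12.59 to 16.42) and 13.31 (11.95 to 15.18). These sizes moved by over 1.5 times with 1 cell left out, and no direction turned. With 0.5 count added, Ryr2 went from 12.43 to 11.82 without L2N7 and to 14.66 without L2N4, and Trdn from 13.14 to 13.89 without L2N4. Casq2 went from 13.92 to 13.31 without L2N7 and to 15.01 without L1N3. On the same scale Cacna1c went from 12.63 to 12.02 without L2N7, and Jph2 from 11.63 to 10.22 without L2P8 and by over 1.5 times without L2N7.

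Atp2a2 had a read in 6 of the 6 P5 negative cells, Camk2d and Pln in 4, Trdn in 3, Slc8a1 and Casq2 in 2 and Ryr2 in 1. Atp2a2 and Camk2d are known to be transcribed in many cell types. Atp2a2 ranged from 0.276 to 164 CPM (median 55.2 CPM) in P5 negative cells, and its log2 ratio was 4.75 (4.71 to 4.79), or 5.51 without L2N12. Camk2d ranged from 0 to 119.7 CPM (median 3.62 CPM), and 82.9% of its counts were in the endothelial-marker cell L2N7. Its log2 ratio of 0.90 (0.85 to 0.95) was the one below 2-fold among the members, and it was 2.85 without L2N7 and 1.28 without L2P12. Pln had 103 CPM in L2N9 and at most 3.11 CPM in the other P5 negative cells. Compared with E14.5 negative cells, all 9 members were at least 2-fold lower in P5 negative cells (background 41.7% of 12552 genes) and 0 were higher (background 33.6%). For 5 members, Atp2a2, Pln, Casq2, Trdn and Slc8a1, every P5 negative cell was below every E14.5 negative cell (background 1.53%). This comparison sets cells that were not cardiomyocyte-led against cardiomyocyte-led cells, and age and cell type cannot be told apart in it.

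Across the 21 E14.5 cells the members did not share one common order. Of 36 pairs of members, 27 had a Spearman rho of CPM above 0 and 9 below, with a median of 0.17 and a range from -0.15 to 0.64. The highest were Atp2a2 with Pln (0.64), Cacna1c with Camk2d (0.55) and Ryr2 with Atp2a2 (0.51). All of these are descriptions over cells that share a total-count scale, and cells are not replicates. The 21 cells mix positive and negative cells, between which the summed levels of Atp2a2, Pln and Ryr2 differed. The part of that difference in rho was not tested. Among 2327 genes with a median of at least 50 CPM in those cells, the genes most like Atp2a2 were Rmdn1 (0.85), Slc25a5 (0.79) and Ppp1r3c (0.73). Those most like Pln were Uqcrb (0.72), Tfpi (0.66) and Slc25a3 (0.65), and those most like Ryr2 were Lpl (0.73), Phip (0.71) and Trnt1 (0.71). For Slc8a1 they were Slc25a12 (0.79), Nsd1 (0.73) and Rhoq (0.67). Each is among the highest of 2327 values over 21 cells. The highest 1% of rho began at 0.58 for Atp2a2, 0.55 for Pln, 0.57 for Ryr2 and 0.46 for Slc8a1. The median rho over these genes was 0.0156, -0.0208, 0.0377 and -0.00779 in the same order, beside the 0.17 of member pairs. No share of pairs above 0 over all genes is given here, so the 27 of 36 has no background. Slc25a5, Slc25a3 and Slc25a12 encode mitochondrial carriers for nucleotides, phosphate and aspartate with glutamate. The other genes named here are not of that family, and whether it is more frequent among like genes was not tested.

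A wider list of 74 calcium handling genes, 71 of them in the table, was read in the same way. In P5 positive against E14.5 positive cells 60 were tested, 20 were at least 2-fold higher and 16 at least 2-fold lower, with a median log2 ratio of -0.07, and by the median cell 15 were higher and 21 lower. Over all genes 30.3% were higher and 40.9% lower in this comparison. In cardiomyocyte-led cells 16 of 58 were higher and 16 lower, beside 24.5% and 49.0% of all genes. The share of the list that was higher lay near that of all genes in both. By role, the called genes were 5 higher and 4 lower of 13 release channel partners, 2 and 2 of 8 genes of the store, 2 and 0 of 6 dyad genes, 2 and 5 of 13 kinases and phosphatases, 1 and 3 of 6 channel subunits, 1 and 1 of 3 pumps and exchangers, and 7 and 1 of 11 genes of store-operated entry and mitochondria.

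Srl, sarcalumenin, a calcium-binding protein of the sarcoplasmic reticulum, and S100a1, a calcium sensor that binds Ryr2 and SERCA2, were higher in all 5 cardiomyocyte-led P5 positive cells than in any E14.5 positive cell. Srl had 201, 452, 359, 591 and 756 CPM in L1P5, L2P3, L2P7, L2P8 and L2P10, against 6.12 to 187 CPM (median 104 CPM) in E14.5 positive cells. For S100a1 the same cells had 22.0, 68.3, 58.0, 51.9 and 256 CPM, against 2.48 to 20.8 CPM in E14.5 positive cells. They were the 2 of 58 genes of the list whose ranges lay apart in these cells, beside 2.07% of all genes, so their number is near the background. Set against the E14.5 negative cells, Srl (17.8 to 454 CPM) and S100a1 (1.00 to 44.7 CPM) overlapped the P5 cells. The log2 ratios were 1.96 for Srl and 2.34 for S100a1 with all cells, and 2.37 and 2.74 in cardiomyocyte-led cells, with 0.5 count added. Without L2P10, S100a1 had 1.55.

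**Figure D4:**
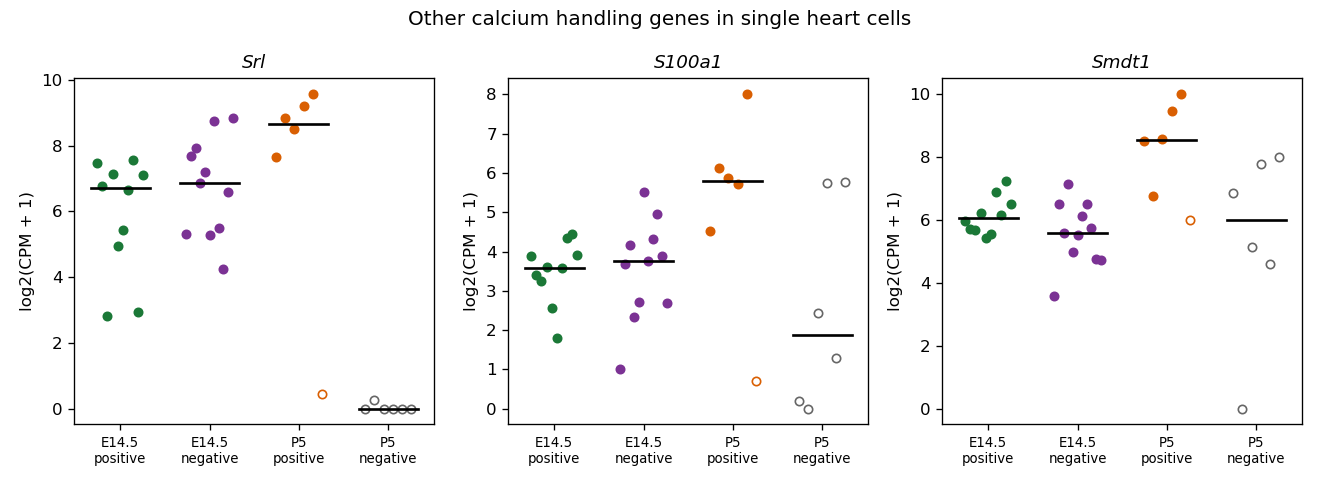
Each point is 1 cell and shows log2(CPM + 1) of Srl, S100a1 and Smdt1 by group, with filled points for cardiomyocyte-led cells and lines at group medians. The filled P5 positive points of Srl and S100a1 all lie above the E14.5 positive points, and 4 of 5 do for Smdt1.

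Smdt1, the EMRE subunit of the mitochondrial calcium uniporter, was above every E14.5 positive cell in 4 of 5 cardiomyocyte-led P5 cells (108 to 1027 CPM against 42.2 to 149 CPM), with a log2 ratio of 2.75 in those cells. Ppp1ca, a catalytic subunit of protein phosphatase 1, which dephosphorylates Pln, had 2.64, and 3 of those 5 cells were above every E14.5 positive cell. Cav3, the caveolin of muscle, had 1.81, or 2.45 without G28 and 1.37 without L2P10. For Cav3, 2 of those 5 cells were above every E14.5 positive cell, and L1P5, at 0 CPM, was below all of them. Sri, sorcin, which binds Ryr2, had 2.39. The Sri value rested in part on L2P12, which held 59.7% of the P5 counts, and was 1.48 without it. Itpr2, an inositol trisphosphate receptor, had 5.18, with about as many counts in L2P12 as in the other P5 cells together, and 4.55 without L2P12, where L2P8 held 84.1% of the counts. Without G1, which held 89.1% of its E14.5 positive counts, Itpr2 had 8.27. Orai1, the pore of store-operated entry, had 2.68 with 92.6% of its P5 counts in L2P12, and -0.68 without that cell, so its call came from the endothelial-marker cell, and it had 3.29 without G27.

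Of the wider list, genes with at least 50 CPM in the summed E14.5 positive or P5 positive cells were ranked. Among them, the lowest ratios at P5 were those of the calcineurin subunits Ppp3cb and Ppp3r1 and of the calcium channel subunit Cacna2d1. These genes, and Itpr1, reached that level in E14.5 positive cells only. At the high end, S100a1, Cav3, Sri, Itpr2 and Orai1 reached it in P5 positive cells only. Entry through the higher group alone favours large ratios, so the places of these genes follow in part from the level. Genes under that level, such as Pdia3 with -5.47, reached lower values. Ppp3cb, a catalytic subunit of the phosphatase calcineurin, had -3.03 and its regulatory subunit Ppp3r1 -2.84, and they were -2.62 and -3.64 in cardiomyocyte-led cells. Without L2P8, Ppp3cb had -4.02. Its 5 cardiomyocyte-led P5 positive cells, at 1.18 to 27.9 CPM, all lay within the E14.5 positive range of 0 to 305 CPM. Ppp3ca, another catalytic subunit of calcineurin and under the 50 CPM level, had -0.58, and -0.61 in cardiomyocyte-led cells, so it did not pass 2-fold. In Ppp3r1, 3 of those 5 cells were below every E14.5 positive cell, and the values spanned 0.112 to 227 CPM. Cacna2d1, the alpha2delta1 subunit of the L-type channel, had -2.96, or -2.56 in cardiomyocyte-led cells, and 109 CPM in summed E14.5 positive cells. Its 5 cardiomyocyte-led P5 positive cells, at 0 to 39.8 CPM, overlapped the E14.5 positive range of 0.937 to 237 CPM. Of these 5 cells, 2 were below every E14.5 positive cell. Itpr1 had -1.81, but 82.0% of its E14.5 positive counts were in G27 and 83.6% of its P5 counts in L2P12. It had -4.01 without L2P12 and 0.26 without G27, so no direction can be given. Ppp1cb (-1.21), Calm3 (-0.92), the chaperone Hsp90b1 (-0.80) and the outer membrane channel Vdac1 (-0.78) were also in this group, and only Ppp1cb among these 4 passed 2-fold, and not in cardiomyocyte-led cells (-0.96). The calmodulin genes encode the same protein and have similar sequences, so their reads are uncertain where the counting could split them.

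In E14.5 positive against E14.5 negative cells 65 genes of the wider list were tested, 5 were at least 2-fold higher and 24 at least 2-fold lower, beside 22.4% and 29% of all genes, with a median log2 ratio of -0.47. With the median cell in place of summed counts 10 were higher and 9 lower, so this split depended on how cells were weighted. Of the genes with at least 50 CPM in E14.5 positive or P5 positive cells, a level that does not count E14.5 negative cells, the highest were Calm3 (1.44), Tmem38a (1.31), a potassium channel of the reticulum, and Calm2 (1.15). Without G25 Tmem38a had 0.53 and without G27 Calm2 had 0.84, which ended their calls. The lowest were Itpr2 (-2.11), Rrad (-2.10), a small GTPase that restrains the L-type channel, and Orai1 (-1.04). Itpr2 and Orai1 reached that level through P5 positive cells, with 8.28 and 19.6 CPM in E14.5 negative cells. Itpr2 had -5.21 without G1 and -1.41 without N24. Orai1 had 0.14 without N30, which held 59.9% of the E14.5 negative counts, and -1.65 without G27, so no direction can be given for it. Casq1, a calsequestrin of skeletal muscle (-3.71), and Atp2b4, a calcium pump of the outer membrane (-2.98), were lower still with 145 and 76.3 CPM in E14.5 negative cells, and were picked out after their values were seen. Casq1 had -4.54 without G25 and Atp2b4 -2.33 without N10. Rrad ranged from 5.40 to 91.6 CPM in positive and from 8.35 to 502 CPM in negative cells, and the ranges overlapped. In neither direction did any gene of the wider list have ranges apart between the E14.5 groups.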

How the data were processed

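The deposited table holds raw read counts per gene, 1 column per cell, with no normalization: its values are whole numbers, and column totals differ from cell to cell. CASAVA 1.8.2, STAR 2.4.0j, HTSeq 0.6.1p1 and the build mm10 are listed in the submitters' processing notes, with no role or order. Strand setting, annotation, treatment of reads with several matches and molecular identifiers are not given in the sources used here, and antisense RNA amplification and a TruSeq kit are named per the labels' protocols. Overlapping and antisense genes can therefore share reads.

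From the counts, group CPM, exact Poisson intervals and log2 ratios with Clopper-Pearson intervals (95%) were computed with Python 3.11.15 and scipy 1.17.1. Printed member ratios have no added count; those of the wider list, and values under alternatives, have 0.5. The members and gene lists were chosen with earlier results of these data known. All members are named; of the wider list, genes with at least 50 CPM in E14.5 positive or P5 positive cells, the 8 highest and 8 lowest at P5 and the 3 highest and 3 lowest at E14.5. Srl, S100a1 and Smdt1 were shown by cell after their values were seen. The ratio of Sln per Pln was not made.

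Alternatives were equal weights for cells, the median cell, edgeR 4.0.16 TMM sizes, DESeq2 1.42.0 size factors, totals without the 20 most abundant genes, cardiomyocyte-led cells, ranges of title numbers, no minimum count, 1 added count and leaving out each cell. Simulated Poisson counts were drawn from a mean per gene pooled over P5 positive and E14.5 positive cells, with no spread between cells. Of 14862 genes, 200 with at least 100 expected counts in P5 positive cells were changed. The estimate was off by at most 0.3 (log2) for 100% of these, and 95.5% of intervals held the simulated ratio. This checks the arithmetic for counting error only and says nothing of the spread from cell to cell. Total counts per cell gave a floor of 3 counts over a group of 0.0153 to 0.0362 CPM, for counting error only.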

Additional observations from a re-analysis of the deposited data

Results flagged for a closer look

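In groups of 6 to 10 cells, 25 sets of values of 1 member in 1 group were compared with Dixon's 95% limit for a single value that stands apart, and 7 passed it. Chance alone picks about 1 in 20, or 1.25 of 25, where values are normally distributed; sets with most cells at or near 0, as in P5 negative cells, are not, and there a single read can pass. In E14.5 positive cells G5 had 655 CPM of Cacna1c, with the next cell at 124 CPM, and in P5 positive cells L1P5 had 371 CPM of Cacna1c, with the next at 61.2 CPM. L1P5 was also the shallowest cell, with 2.55 M counts. The other 5 were P5 negative cells, all without leading cardiomyocyte markers. L2N9 had 103 CPM of Pln, L2N7 had 119.7 CPM of Camk2d and L2N12 had 2.79 CPM of Slc8a1, with the next cells at 3.11, 35.7 and 0.194 CPM. L2N4 had 0.388 CPM of Ryr2 and 0.388 CPM of Trdn, which are 2 counts each.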

How the results depend on the processing

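Against 0 members called higher and 3 lower in P5 positive over E14.5 positive cells, DESeq2 size factors gave 1 lower, cardiomyocyte-led cells 1 lower, and E14.5 cells numbered 1 to 10 gave 1 higher and 4 lower. Leaving out 1 cell gave 0 to 1 higher and 1 to 4 lower, with the 1 lower without L2P12. In E14.5 positive over negative cells, with none called, numbers 1 to 10 gave 1 higher, numbers 21 to 30 gave 2 lower, DESeq2 size factors 1 lower, and leaving out 1 cell gave 0 to 2 lower. The log2 ratio of Cacna1c turned from -1.10 to 0.04 against E14.5 cells numbered 21 to 30. Leaving out cells for the named genes of the wider list was chosen after seeing the data: Orai1 spanned -0.68 (without L2P12) to 3.29 at P5 and -1.65 to 0.14 (without N30) at E14.5, and Itpr1 -4.01 to 0.26 (without G27) at P5. Each of these settings changes which cells or totals enter; beyond that the cause was not tested. The counts in the 2 comparisons with P5 negative cells stayed within 1.5 times under every alternative run. TMM sizes moved the all-gene median of P5 positive over E14.5 positive by 0.16 and DESeq2 size factors by 0.38. These sizes shift the log2 ratio of every gene alike, so the member median minus the all-gene median, 0.02, could not change. With equal weights for cells this difference was 0.54, with the median cell 0.25 and in cardiomyocyte-led cells 0.97. Against E14.5 cells numbered 1 to 10 it was -0.21. Jph2 (-1.58), Camk2d (0.07) and Pln (0.11) changed sign with the median cell in place of sums. No paired analysis was possible because replicate numbers only name cells and no test was made. Thinning cells to 8671357 counts left out 6 cells, among them those that held the Ryr2 and Casq2 reads of P5 negative cells, so it says nothing of depth for these genes.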
